A study of Caenorhabditis elegans with 45 samples.

Results

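Dauer larvae of the Caenorhabditis elegans wild-type strain N2 were put back on food, and polyadenylated RNA of whole worms was sequenced once at every hour. The later part of the first meal, hours 4, 5 and 6 after food was given, was compared with its beginning, hours 1, 2 and 3. The groups were fixed by the sampling hour alone, which gives 6 libraries, 3 in each window, out of 22 in the dauer exit course and 45 in the whole series. Animals of all 6 libraries had the same strain and the same treatment: they were grown as dauer larvae and then plated on agar with a lawn of the bacterium OP50, with the moment of plating counted as hour 0. They were washed off the plates before RNA was isolated, and each library holds 1 sample of many worms. Of the other courses of the series, only the 16 libraries of continuous growth of N2 from hatching are used, as a scale for levels. They were taken at consecutive hours well after hatching, so the scale does not cover the earlier hours of that growth.

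The dauer larva takes the place of the third larval stage, and worms enter it when food is short and the population is dense. It does not feed, its mouth is closed, it has a special cuticle, it lives on stored fat and sugar, and its entry is set by insulin, TGF-beta and steroid hormone signals that sensory neurons control. On food the larva commits to recovery within hours, starts to pump and feed, changes its metabolism back to one that uses ingested bacteria, and later molts into the fourth larval stage. The comparison asks which transcripts moved during the hours in which that switch takes place.

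Each hour is represented by 1 library, so the hours of a window serve as its replicates and the error of a window includes the change that took place inside it. No unfed library was part of the comparison, so the effect of food cannot be told apart from that of elapsed time, plating or washing, and values at hour 1 already follow 1 h of contact with food. In RNA of whole worms, fewer cells of a type and less RNA per cell cannot be told apart. The 6 libraries held 18521397 to 23815414 counted reads, and of 15 pairs of libraries the most alike, hours 4 and 5, still differed by a chi-square of 17.5 per gene, so none was a repeat of another. Levels are given as CPM, counts scaled to a library total of 1000000 reads, without a correction for gene length, so they compare samples and not genes.

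The label was checked against genes known to be high in dauer larvae. Of 22 such genes, 9 stayed under 1 CPM in all 6 libraries, among them the dauer collagen gene col-2, the cuticlin gene cut-1, the superoxide dismutase gene sod-3 and the metallothionein gene mtl-1. Among the 9, ctl-1 had 0 CPM in every library of dauer exit and continuous N2, so it is not informative. Other markers were present. The gene of the chaperone HSP-90 lay between 4846 and 8574 CPM in the 6 libraries, above the 2689 to 4026 CPM of 16 libraries of continuous N2. The genes ctl-2 (12.5 to 89.1 CPM) and mtl-2 (2.31 to 4.63 CPM) lay below continuous N2 (101.7 to 171.1 and 56.8 to 165.9 CPM). The gene lea-1 (75.1 to 107.3 CPM) also lay below it (115.9 to 237.5 CPM), as did sod-3 and hsp-12.3 at levels under 1 CPM. Other markers, such as tps-2, overlapped with the range of continuous N2. The small heat shock gene hsp-12.6, a marker of FOXO activity, had 1.97 CPM at hour 1 and 0.141 to 0.662 CPM at hours 2 to 6. At the first hour sampled, part of the dauer marker set was thus at or near 0.

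Of 13415 genes that passed a filter on low counts, 374 were at least 2-fold higher at hours 4 to 6 and 619 at least 2-fold lower, at an adjusted p under 0.05 (edgeR's quasi-likelihood test with Benjamini-Hochberg adjustment). These are 2.79% and 4.61% of the genes tested, and genes that meet both thresholds are called higher or lower in what follows. Counts of called members of any gene list are to be read beside these shares. The filter used the same libraries, so a low gene could pass it through a single window. All 993 had windows that did not overlap, with every library of one window above every library of the other. Windows without overlap were common in general: 2259 genes (16.8%) lay higher at hours 4 to 6 and 4231 (31.5%) lower, and 5595 genes (41.7%) had an unadjusted p under 0.05. The median log2 fold change of all tested genes was 2e-04, and -0.117 when libraries were scaled by their totals alone, which gave 318 genes higher and 936 lower.

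The calls stand close to the threshold. Their adjusted p-values lay between 0.0451 and 0.05, and leaving out hour 1, 2, 4, 5 or 6 ended every call, while leaving out hour 3 gave 759 genes higher and 1534 lower. All 993 genes kept their direction in each of these fits, but windows without overlap largely fixed that outcome in advance. A linear trend over the same 6 libraries, which uses the change within the windows, called 730 genes higher (5.44%) and 1135 lower (8.46%). Among them were 850 of the 993, in the same direction. DESeq2 called 679 genes higher (5.06%) and 1121 lower (8.36%) on the same windows.

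The transcriptome moved most in the first 2 steps. From hour 1 to hour 2, 297 genes were at least 2-fold higher and 380 at least 2-fold lower at the later hour, out of 8654 genes with at least 10 CPM at either hour, a share of 7.82%. The share was 5.66% from hour 2 to 3, 2.74% from 3 to 4, 1.57% from 4 to 5 and 2.14% from 5 to 6. These counts compare single libraries and carry no test. The direction also shifted with time. Falls of at least 2-fold outnumbered rises from hour 2 to 3, with 340 against 143 genes, and from hour 5 to 6 there were 152 rises against 21 falls. All 16 later steps, up to hour 22, had shares between 3.7% and 13.06%, so the steps from hour 3 to hour 6 were smaller than any later one.

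**Figure D1:**
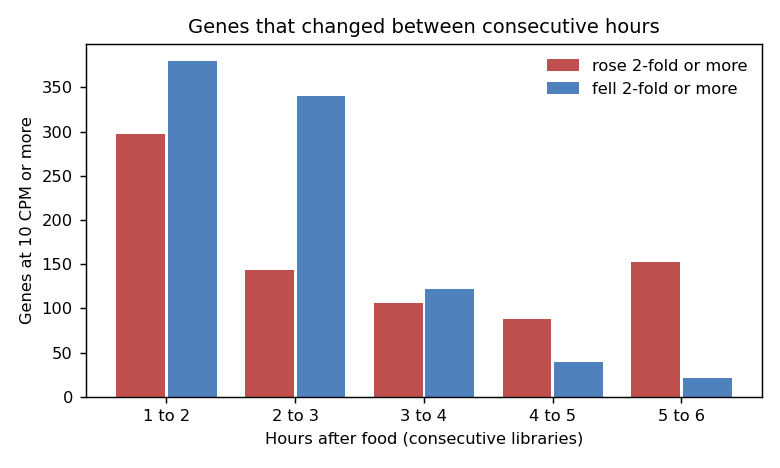
Number of genes (vertical axis) that were at least 2-fold higher (red) or lower (blue) at the later of 2 consecutive hours after food (horizontal axis), among genes with at least 10 CPM at either hour and with 1 library per hour. Both bars are tall for the first step, with 297 rises and 380 falls, and at the last step 152 rises stand beside 21 falls.

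Genes of autophagy fell in part. Autophagy delivers cell components to the lysosome for breakdown, and in worms it is needed for dauer formation and for survival without food. Of 27 tested autophagy genes 8 were called lower and 0 higher by edgeR (17 lower and 0 higher at an unadjusted p under 0.05, 9 lower and 0 higher by DESeq2), a share to be read beside 4.61% of all genes, and 24 lay lower at hours 4 to 6 without overlap of the windows, beside 31.5% of all genes. Their median log2 fold change was -0.58, against 2e-04 over all genes.

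The largest fall in the list was that of lgg-2 (chromosome IV, 10934196 to 10935903 in build WBcel235), which encodes an LC3-type protein that coats the autophagosome. It had 50.9, 33.6 and 25.6 CPM at hours 4, 5 and 6, against 331, 285 and 106 CPM at hours 1, 2 and 3. Each hour was lower than the one before. The log2 fold change was -2.61 ± 0.47 (standard error; adjusted p = 0.0451, edgeR). The gene epg-9, which encodes the ATG101 subunit of the kinase complex that starts autophagy, had 28.3, 23.3 and 16.6 CPM at hours 4 to 6 and 184, 119 and 52.4 CPM at hours 1 to 3, a log2 fold change of -2.28 ± 0.47. The cargo receptor gene sqst-1, the worm p62, had 89.2, 80.5 and 79.5 CPM at hours 4 to 6, against 216, 422 and 141 CPM at hours 1 to 3, and differed from the first pair in being highest at hour 2.

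The other 5 called members, named after their values were seen, take part in different steps. The ubiquitin-like core protein gene lgg-1 changed by -1.08 ± 0.24 on the log2 scale and the lipid transfer protein gene atg-2 by -1.16 ± 0.25. The cargo adaptor genes allo-1 and epg-2 changed by -1.44 ± 0.26 and -1.07 ± 0.23, and epg-6, which encodes a phosphoinositide-binding WIPI protein, by -1.05 ± 0.27. The gene atg-9, for a membrane protein that brings lipid to the forming autophagosome, had 38.5, 34.1 and 31.0 CPM at hours 4 to 6 and 107, 83.8 and 46.3 CPM at hours 1 to 3, and missed the threshold with an adjusted p of 0.0549 (edgeR). Summed over the list, autophagy transcripts made up 1253, 1071 and 1026 CPM at hours 4, 5 and 6, against 2482, 2832 and 1668 CPM at hours 1, 2 and 3. In the TOR and nutrient-sensing list, the pathway that restrains autophagy when food is present, 1 of 23 tested genes, mxl-2, was called lower by edgeR and 0 higher (9 lower and 3 higher at an unadjusted p under 0.05, 2 lower and 1 higher by DESeq2). The backgrounds for edgeR were 4.61% and 2.79% of all genes.

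The genes with a symbol, at least 10 CPM in the higher window and the largest falls, 8 in number, differ in what they are known to do. The P-glycoprotein gene pgp-6 (chromosome X, 10871201 to 10877425, WBcel235), an ABC-type efflux pump of the kind that exports foreign compounds, had 12.1, 11.7 and 8.26 CPM at hours 4, 5 and 6, against 252, 322 and 43.4 CPM at hours 1, 2 and 3. The drop lay between hours 2 and 4, and the windows were far apart. The log2 fold change was -4.16 ± 0.75 (adjusted p = 0.0451, edgeR). Its neighbours pgp-5 and pgp-7, named after their values were seen, changed by -4.001 ± 0.70 and -3.68 ± 0.62. The treatment of reads that match more than 1 of these neighbours was not given in the sources used here. The 3 values may therefore not be independent. Of 14 tested pgp genes 4 were called lower and 1 higher, beside 4.61% and 2.79% of all genes. The fourth was pgp-1, an intestinal member, with a change of -2.44 ± 0.60.

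The C-type lectin gene clec-3, from a large family of secreted sugar-binding proteins with roles in defence, had 1.83, 1.23 and 1.67 CPM at hours 4 to 6, against 61.3, 45.8 and 14.7 CPM at hours 1 to 3. It changed by -4.58 ± 0.58 (adjusted p = 0.0451, edgeR), and it stayed between 0.736 and 2.89 CPM through hour 22, the range seen in continuous N2 being 0.772 to 2.97 CPM. Of 99 tested clec genes 8 were called lower and 6 higher, with a median log2 fold change of -0.40, and 34 lay lower without overlap of the windows. The backgrounds are 4.61%, 2.79% and 31.5% of all genes, and nothing is read from these shares about the family. The glucuronosyltransferase gene ugt-31, whose family couples sugar acids to lipophilic compounds, had 4.69, 4.5 and 3.08 CPM at hours 4 to 6 and 86.6, 117 and 18.5 CPM at hours 1 to 3. In that family 10 of 61 tested genes were called lower and 4 higher, at the same backgrounds.

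The infection response gene irg-1, known to be induced when bacterial toxins block translation, had 1.55, 0.529 and 0.432 CPM at hours 4, 5 and 6 and 8.9, 28.8 and 7.28 CPM at hours 1, 2 and 3. The poly(ADP-ribose) glycohydrolase gene parg-2 had 1.22, 1.06 and 0.54 CPM at hours 4 to 6 and 12.64, 58 and 7.42 CPM at hours 1 to 3. Both were highest at hour 2. So were the claudin-like gene clc-19, with 118 CPM at hour 2 and no more than 15.4 CPM at any other of the 6 hours, and the O-acyltransferase homologue oac-32, with 95.1 CPM at hour 2. The F-box gene fbxc-58 had 2.02, 0.793 and 1.73 CPM at hours 4 to 6 and 45.2, 37.3 and 3.84 CPM at hours 1 to 3. In the F-box families 14 of 125 tested genes were called lower and 3 higher, beside 4.61% and 2.79% of all genes. Among pals genes, many of which respond to intracellular pathogens, 3 of 15 were called lower, pals-23 and pals-24 by -3.63 ± 0.51 and -3.66 ± 0.65 on the log2 scale and the low-level pals-2. The median of the 15 was 0.04, and 4.61% of all genes were called lower. The pgp, F-box and pals families were added after values had been seen.

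Several of these genes came back later in the course, in libraries that the window comparison did not use. The level of pgp-6 was 3.57 CPM at hour 9, 255 CPM at hour 12 and 5.06 CPM at hour 17, and reached 129 CPM again at hour 21. That of irg-1 was 0.149 CPM at hour 8, 53.3 CPM at hour 12 and 39.4 CPM at hour 21. The peak of lgg-2 at hour 12, 53.4 CPM, stayed far under its 331 CPM of hour 1, whereas pgp-6 regained its early level. Of the 619 genes called lower, 140 (22.6%) had a mean at hours 11 to 13 at least 2 times that at hours 7 to 9 and at hours 15 to 17. The same held for 879 of all 13415 tested genes (6.55%) and for 32 of the 374 called higher (8.56%). The hours of this description were chosen after the courses were seen, and it carries no test.

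**Figure D2:**
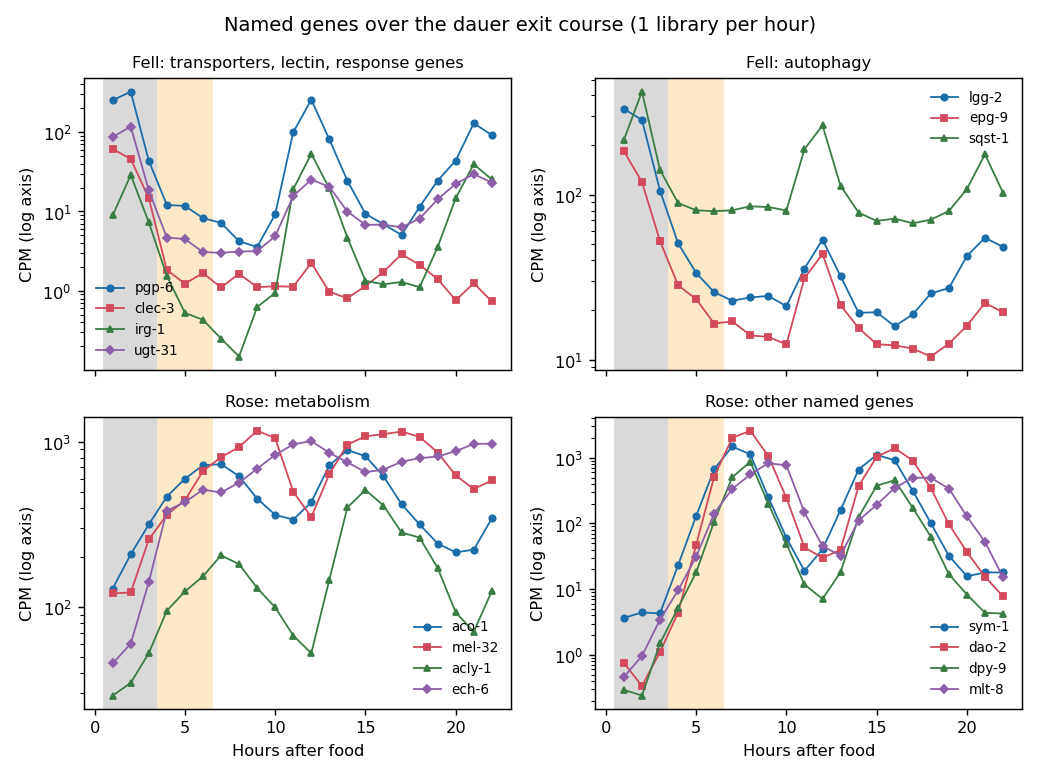
CPM on a log axis (vertical) against hours after food (horizontal) for named genes over the 22 libraries of the dauer exit course, 1 library per point, with hours 4 to 6 shaded orange and hours 1 to 3 shaded grey. The upper panels show genes that were lower at hours 4 to 6, and among them pgp-6 returns to 255 CPM at hour 12. The lower panels show genes that were higher, and the genes at lower right have their first maximum at hours 7 to 9.

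Transcripts of neuropeptides fell across a large family. Neuropeptides are short signals that neurons release to tune behaviour and physiology, and dauer larvae are known for a distinctive set of them. Of 93 tested genes for FMRFamide-like and other neuropeptides 34 were called lower, a share to be read beside 4.61% of all genes, and 1 was called higher. The windows did not overlap for 76 on the lower side and 1 on the higher side, and the median log2 fold change was -0.94. The list summed to 1618, 1407 and 1257 CPM at hours 4, 5 and 6, against 3464, 2605 and 2152 CPM at hours 1, 2 and 3, so it declined at every hour. The largest fall was that of nlp-2, with 0.422, 0.353 and 0.162 CPM at hours 4 to 6 and 8.94, 2.79 and 1.28 CPM at hours 1 to 3 (log2 fold change -3.65 ± 0.84). The exception was nlp-24, a neuropeptide-like gene, with 8.06, 12.1 and 23.1 CPM at hours 4 to 6 and 3.69, 3.32 and 3.75 CPM at hours 1 to 3. The proprotein convertase gene egl-3, whose enzyme cuts neuropeptides out of their precursors, had 331, 274 and 211 CPM at hours 4 to 6 and 780.3, 579 and 434 CPM at hours 1 to 3, a change of -1.03 ± 0.25 (adjusted p = 0.0473, edgeR).

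General neuronal markers moved in the same direction by less. Of 27 tested markers 2 were called lower, egl-3 and the vesicle priming gene unc-13 (-1.02 ± 0.19), and 0 were called higher by edgeR (15 lower and 2 higher at an unadjusted p under 0.05, 2 lower and 0 higher by DESeq2). Without overlap 18 lay lower, and the backgrounds were 4.61% of all genes called lower and 31.5% lower without overlap. Their median was -0.38, and their sum ran from 1266 to 1625 CPM at hours 4 to 6 and from 1978 to 2607 CPM at hours 1 to 3. The part of the overall neuronal share in the neuropeptide and receptor values was not tested.

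Chemoreceptor genes encode the receptors that sensory neurons use to smell food and other worms, and some of them fell as well. Only 264 of 1335 passed the filter on low counts, which a low gene could pass through hours 1 to 3 alone. Of these 264, 35 were called lower and 2 higher, beside 4.61% and 2.79% of all genes, with a median of -0.81. Members that entered this way would tilt the count and the median towards falls, and by how much was not tested. The receptor gene srt-39 had 0.609, 0.132 and 0.054 CPM at hours 4 to 6, against 12.5, 10.2 and 2.34 CPM at hours 1 to 3 (log2 fold change -4.83 ± 0.93). It stayed under 1 CPM to the end of the course. The receptor gene srr-1 had 6.47, 6.48 and 5.29 CPM at hours 4 to 6 and 96.2, 30.5 and 14.0 CPM at hours 1 to 3. Summed over the 264 tested chemoreceptors the level changed less, with 1953, 1971 and 2219 CPM at hours 4, 5 and 6 and 2605, 2343 and 2243 CPM at hours 1, 2 and 3.

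Insulin-like peptides are ligands of the receptor DAF-2 that steer dauer entry and exit. Only 26 of 39 genes passed the filter on low counts, which a low gene could pass through hours 1 to 3 alone. Of the 26, 6 were called lower and 1 higher, beside 4.61% and 2.79% of all genes, with a median of -0.81. The gene ins-10 had 2.11, 1.19 and 1.08 CPM at hours 4 to 6 and 6.84, 8.28 and 5.52 CPM at hours 1 to 3 (log2 fold change -2.12 ± 0.31). The others called lower were ins-21 (-2.19 ± 0.50), ins-22 (-1.70 ± 0.34), ins-18 (-1.25 ± 0.25), ins-17 (-1.22 ± 0.28) and ins-6 (-1.03 ± 0.24). The ligand of ins-6 is known to promote dauer exit, and the gene had 18.2, 15.8 and 11.4 CPM at hours 4 to 6 and 38.3, 36.8 and 24.8 CPM at hours 1 to 3. The gene ins-33 was called higher, with 2.34, 4.23 and 7.4 CPM at hours 4 to 6 and 0.42, 0.481 and 0.618 CPM at hours 1 to 3. Most of these levels are low and few reads stand behind them.

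Downstream of these ligands little passed the test. None of 17 tested genes of the insulin to FOXO pathway was called by edgeR in either direction, while 2 were higher and 1 lower at an unadjusted p under 0.05 and DESeq2 called 1 lower. The receptor gene daf-2 had 68.1, 66.6 and 72.4 CPM at hours 4 to 6 and 87.3, 74.4 and 80.0 CPM at hours 1 to 3 (log2 fold change -0.10 ± 0.10). The FOXO gene daf-16, whose product drives the dauer programme, had 179.5, 154 and 121 CPM at hours 4 to 6 and 549.8, 251 and 234 CPM at hours 1 to 3. Its windows did not overlap, but with a change of -1.08 ± 0.35 the adjusted p was 0.0743 (edgeR), and most of the difference lay between hours 1 and 2. In the TGF-beta and steroid list 2 of 21 genes were called lower, beside 4.61% of all genes, and nothing is read from this count about the list. One was strm-1, whose enzyme methylates sterols and limits the supply of dafachronic acid precursors, with 5.62, 5.33 and 6.26 CPM at hours 4 to 6 and 20.1, 14.6 and 11.0 CPM at hours 1 to 3. The other was daf-38, a receptor for the ascaroside pheromones that induce dauer (-1.11 ± 0.20). The steroid receptor gene daf-12, the hormone synthesis gene daf-9 and the TGF-beta ligand gene daf-7 changed by 0.33 ± 0.10, 0.28 ± 0.20 and -0.33 ± 0.14, none of them past the threshold (adjusted p = 0.0674, 0.327 and 0.124, edgeR). For daf-9 the windows overlapped.

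Small heat shock genes, which encode chaperones that hold misfolded proteins, fell in part. Of 9 tested genes 2 were called lower and 0 higher by edgeR (4 lower and 1 higher at an unadjusted p under 0.05, 4 lower and 0 higher by DESeq2). Of all genes, edgeR called 4.61% lower and 2.79% higher. The chaperone gene hsp-16.41 had 20.1, 8.15 and 5.02 CPM at hours 4 to 6 and 42.0, 128 and 47.8 CPM at hours 1 to 3 (log2 fold change -2.62 ± 0.66). The gene sip-1, a member of the same class, had 20.9, 17.9 and 12.4 CPM at hours 4 to 6 and 117, 54.1 and 35.0 CPM at hours 1 to 3, falling at every hour. Its neighbour in function hsp-16.2 (-2.07 ± 0.54, adjusted p = 0.0508) and the inducible HSP70 gene hsp-70 (-1.69 ± 0.46, adjusted p = 0.0536) missed the threshold in edgeR's test. None of 14 cytosolic chaperone genes of the HSP70 and HSP90 systems and none of 30 genes of folding in the endoplasmic reticulum was called by edgeR. At an unadjusted p under 0.05 there were 3 lower and 1 higher in the first set and 11 higher in the second, and DESeq2 called 1 lower in the first and 1 higher in the second.

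Genes of central carbon metabolism rose. Of 28 tested genes of the TCA cycle and of pyruvate entry into it 5 were called higher by edgeR and 0 lower (23 higher and 0 lower at an unadjusted p under 0.05, 6 higher and 0 lower by DESeq2), beside 2.79% of all genes called higher. Of the 28, 23 lay higher without overlap, a share to be read beside 16.8% of all genes. The median log2 fold change was 0.62, and 20 of the 28 passed the adjusted p alone, at a background of 7.37%. The cytosolic isocitrate dehydrogenase gene idh-1 had 1046, 1298 and 1457 CPM at hours 4, 5 and 6, against 177, 413 and 645 CPM at hours 1, 2 and 3. Its level was higher at each hour than at the one before (log2 fold change 1.75 ± 0.45, adjusted p = 0.0496, edgeR). The mitochondrial counterpart idh-2 had 39.1, 50.6 and 75.1 CPM at hours 4 to 6 and 10.7, 12.56 and 25.3 CPM at hours 1 to 3. The aconitase gene aco-1 had 467, 597 and 722 CPM at hours 4 to 6 and 129, 208 and 316 CPM at hours 1 to 3. The pyruvate dehydrogenase subunit gene pdhb-1 (1.23 ± 0.18) and the succinyl-CoA ligase subunit gene sucl-1 (1.01 ± 0.17) completed the set. In glycolysis 2 of 18 tested genes were called higher, the enolase gene enol-1 (1.18 ± 0.26) and the phosphoglycerate kinase gene pgk-1 (1.07 ± 0.17), with a list median of 0.51.

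Dauer larvae keep glycogen and the disaccharide trehalose as reserves. Of 20 tested genes of the glyoxylate cycle, gluconeogenesis, trehalose and glycogen 2 were called higher and 1 lower, beside 2.79% and 4.61% of all genes, with a median of 0.45. The glycogen synthase gene gsy-1 had 62.9, 74.2 and 79.2 CPM at hours 4 to 6 and 29.8, 33.1 and 40.6 CPM at hours 1 to 3 (1.19 ± 0.16). The alpha-glucosidase gene aagr-4 had 58.4, 127 and 310.2 CPM at hours 4 to 6, against 15.4, 11.7 and 25.7 CPM at hours 1 to 3. The trehalase gene tre-2 was lower, with 40.7, 35.6 and 34.4 CPM at hours 4 to 6 and 132, 106 and 56.2 CPM at hours 1 to 3 (-1.29 ± 0.30). The glyoxylate cycle gene icl-1, a classic dauer gene whose enzyme lets fat be turned into sugar, had 71.9, 28.1 and 49.2 CPM at hours 4 to 6 and 96.2, 134 and 57.7 CPM at hours 1 to 3. Its windows overlapped, and the change of -0.85 ± 0.41 did not pass the test (adjusted p = 0.168, edgeR).

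Genes of one-carbon metabolism and its branches rose as well. This network moves methyl groups from serine and glycine through folate to methionine. Of 21 tested genes 6 were called higher by edgeR and 0 lower (11 and 0 at an unadjusted p under 0.05, 8 and 0 by DESeq2), with a median of 0.92. Of all genes, edgeR called 2.79% higher and 4.61% lower. The serine hydroxymethyltransferase gene mel-32, at the entry of the folate cycle, had 362, 443 and 666 CPM at hours 4 to 6 and 121, 122 and 256 CPM at hours 1 to 3 (1.69 ± 0.38). The mitochondrial folate enzyme gene dao-3 had 19.2, 23.7 and 33.7 CPM at hours 4 to 6 and 4.79, 5.44 and 12.1 CPM at hours 1 to 3, and the glycine cleavage gene gcst-1 had 111, 129.7 and 151 CPM at hours 4 to 6 and 36.3, 40.1 and 72.8 CPM at hours 1 to 3. All 3 genes were about level between hours 1 and 2. The adenosylhomocysteinase gene ahcy-1, which clears the product of methyl transfer, had 3632, 4298 and 4780 CPM at hours 4 to 6 and 979.8, 1680 and 2674 CPM at hours 1 to 3 (1.38 ± 0.35, adjusted p = 0.0494, edgeR). The propionyl-CoA carboxylase genes pcca-1 and pccb-1, counted in the same list for the breakdown of methionine, changed by 1.17 ± 0.17 and 1.06 ± 0.19. The gene sams-1, which encodes an S-adenosylmethionine synthetase, had 1742, 1759 and 2393 CPM at hours 4 to 6 and 365, 474 and 1830 CPM at hours 1 to 3. Its step lay between hours 2 and 3, so the windows overlapped, and the comparison did not call it (1.27 ± 0.61, adjusted p = 0.162, edgeR).

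Some genes of fat synthesis and of fat oxidation rose. Of 22 tested genes of fatty acid synthesis, elongation and desaturation 6 were called higher by edgeR and 0 lower (14 and 3 at an unadjusted p under 0.05, 10 and 0 by DESeq2), beside 2.79% of all genes called higher, with a median of 0.89. The ATP citrate lyase gene acly-1, which makes cytosolic acetyl-CoA for fat synthesis, had 94.95, 124 and 153 CPM at hours 4 to 6, against 29.1, 34.7 and 52.6 CPM at hours 1 to 3 (1.80 ± 0.28). Its paralogue acly-2 changed by 1.74 ± 0.42. The 3 enzymes of the elongation cycle that were called, let-767, art-1 and hpo-8, changed by 1.78 ± 0.23, 1.59 ± 0.28 and 1.42 ± 0.36. The palmitate desaturase gene fat-5 had 9.14, 21.5 and 15.1 CPM at hours 4 to 6 and 2.98, 3.56 and 4.02 CPM at hours 1 to 3. The stearate desaturase gene fat-6 had 614, 614 and 543 CPM at hours 4 to 6 and 51.3, 185 and 276 CPM at hours 1 to 3. Its windows did not overlap, but it missed the threshold (1.91 ± 0.55, adjusted p = 0.0581, edgeR). Of 39 tested genes of fatty acid oxidation 3 were called higher by edgeR and 0 lower (19 and 1 at an unadjusted p under 0.05, 11 and 1 by DESeq2), with a median of 0.68, and the linear trend called 10 higher and 1 lower. Of all genes, edgeR called 2.79% higher and the trend 5.44%. The enoyl-CoA hydratase gene ech-6 had 384, 432 and 513 CPM at hours 4 to 6 and 45.5, 59.98 and 142 CPM at hours 1 to 3 (2.56 ± 0.44). The acyl-CoA dehydrogenase gene acdh-9 changed by 1.14 ± 0.28. The acyl-CoA oxidase gene acox-1.4 was at 1.31, 2.25 and 5.67 CPM at hours 4 to 6, against 0, 0 and 0.265 CPM at hours 1 to 3.

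**Figure D3:**
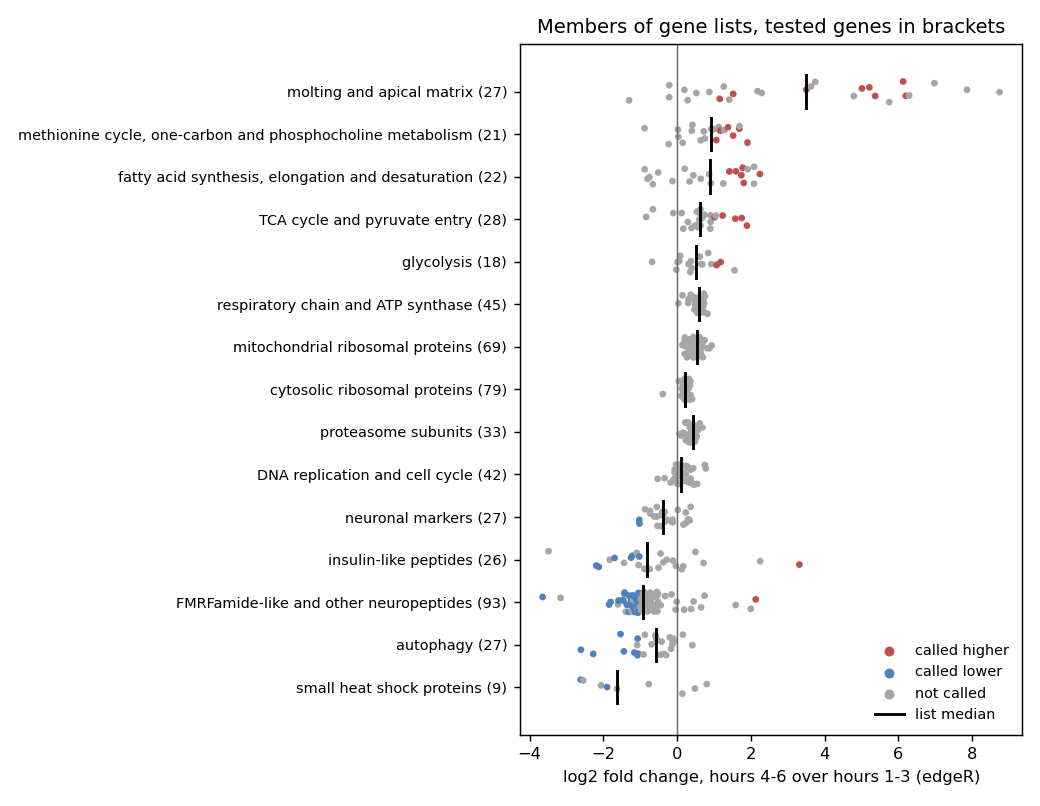
Log2 fold change of hours 4 to 6 over hours 1 to 3 (horizontal axis) for each tested member of 15 gene lists (vertical axis, number tested in brackets). Red members were called higher and blue ones lower, at least 2-fold with an adjusted p under 0.05, grey ones were not called, and the bar is the list median. The respiratory chain and mitochondrial ribosome members lie close together between 0 and 1, and the matrix members reach 8.74.

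Mitochondrial machinery rose together by less than 2-fold. Of 45 tested genes of the respiratory chain and ATP synthase none reached a 2-fold change in edgeR's fit with an adjusted p under 0.05, and DESeq2 called 0, but 42 had an unadjusted p under 0.05 and 36 passed the adjusted p alone, at a background of 7.37% of all genes. For 41 of the 45 the hours 4 to 6 lay above hours 1 to 3 without overlap, at a background of 16.8%. The median log2 fold change was 0.60. Of 69 mitochondrial ribosomal protein genes 40 passed the adjusted p alone and 58 lay higher without overlap, with a median of 0.53. Vacuolar ATPase genes, which acidify lysosomes and gut granules, had 14 of 21 past the adjusted p alone and a median of 0.47, and proteasome subunit genes 13 of 33 and a median of 0.42. Cytosolic ribosomal protein genes had 12 of 79 past the adjusted p alone, 59 higher and 1 lower at an unadjusted p under 0.05, and a median of 0.22, and scaling by library totals alone shifts the median of all genes by -0.117. The ribosomal protein gene rpl-4 had 4899, 5207 and 4611 CPM at hours 4 to 6 and 4407, 4427 and 4629 CPM at hours 1 to 3, with overlapping windows (0.25 ± 0.07, adjusted p = 0.064, edgeR). The nucleolar gene fib-1, which encodes fibrillarin for ribosomal RNA processing, had 2485, 2455 and 2011 CPM at hours 4 to 6 and 1429, 1789 and 2283 CPM at hours 1 to 3, and its maximum at hours 4 and 5 left no called change (0.45 ± 0.17, adjusted p = 0.103, edgeR). It had the highest log2 fold change of 51 tested ribosome biogenesis genes, and that list did not rise. Its median was 0.03, and edgeR called 0 members higher and 1 lower, beside 2.79% and 4.61% of all genes. At an unadjusted p under 0.05 there were 6 higher and 8 lower.

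Genes of digestion and defence in the gut moved in both directions within their families. Worms grind bacteria in the pharynx and break them down in the intestine with proteases, lysozymes and membrane-active saposins. Of 21 tested digestive protease genes 2 were called higher and 2 lower, beside 2.79% and 4.61% of all genes. The cathepsin B-like gene cpr-6 had 64.2, 123 and 221 CPM at hours 4 to 6 and 14.2, 4.24 and 10.8 CPM at hours 1 to 3 (3.94 ± 0.64), and its relative cpr-2 had 85.2, 219 and 129.8 CPM at hours 4 to 6 and 14.4, 15.9 and 21.9 CPM at hours 1 to 3. The cathepsin genes cpz-1 (-1.30 ± 0.29) and cpl-1 (-1.26 ± 0.24) were lower, cpl-1 with 386, 373 and 371 CPM at hours 4 to 6 and 1248, 1036 and 649 CPM at hours 1 to 3. Both of these also serve the cuticle in molting worms, and cpz-1 had reached 1302 CPM by hour 9. Continuous N2 held no more than 0.726 CPM of cpr-2 in any library, so its level of hours 4 to 6 had no counterpart in the hours sampled there.

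Of 30 tested lysozyme and saposin-like genes 5 were called higher and 3 lower, beside 2.79% and 4.61% of all genes. The invertebrate-type lysozyme gene ilys-5 had 52.2, 126 and 111.5 CPM at hours 4 to 6, against 4.83, 3.47 and 10.6 CPM at hours 1 to 3 (4.07 ± 0.56). The saposin-like genes spp-4 (4.69 ± 0.77) and spp-5 (1.14 ± 0.17) were higher and spp-9 (-2.65 ± 0.51) lower. The gut esterase gene ges-1 had 4.31, 8.06 and 10.8 CPM at hours 4 to 6 and 0.84, 1.01 and 2.08 CPM at hours 1 to 3. Its later range of 15.0 to 59.4 CPM lies above all 6. The lipase gene lipl-5 had 194, 199.7 and 178 CPM at hours 4 to 6 and 20.8, 16.9 and 50.3 CPM at hours 1 to 3 (2.82 ± 0.42). The peptide transporter gene pept-1, which takes up digested protein, went the other way without a call, with 874, 772 and 598 CPM at hours 4 to 6 and 1812, 1108 and 952 CPM at hours 1 to 3 (adjusted p = 0.105, edgeR). Of 13 tested intestinal markers 2 were called higher, ges-1 and spp-5, and 1 lower, pgp-1, at the same backgrounds of 2.79% and 4.61%. Their sum, 9751 to 11760 CPM at hours 4 to 6 and 9515 to 11920 CPM at hours 1 to 3, overlapped between the windows.

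Cytochrome P450 genes, which oxidise foreign compounds and fatty acids, had 5 of 51 members called higher and 2 lower, beside 2.79% and 4.61% of all genes. The gene cyp-35A2 had 3.94, 13.9 and 52.0 CPM at hours 4 to 6 and 0.672, 0.337 and 1.24 CPM at hours 1 to 3 (5.08 ± 1.098), and cyp-35C1 changed by 3.77 ± 0.92. Lower were cyp-13A12 (-2.68 ± 0.61) and cyp-14A5. Glutathione transferases had 4 of 38 called higher, led by gst-42 (3.52 ± 0.71), and 4 lower, led by gst-14 (-2.86 ± 0.67), at the same backgrounds. Of the antioxidant list the peroxisomal catalase gene ctl-2, with 53.5, 79.2 and 89.1 CPM at hours 4 to 6 and 12.5, 25.4 and 35.8 CPM at hours 1 to 3, and the glutathione peroxidase gene gpx-7 were the 2 of 19 called higher, and edgeR and DESeq2 called 0 lower (1 at an unadjusted p under 0.05). In the list of dauer and stress genes, 3 of 21 were called higher and 1 lower. Both lists are to be read beside 2.79% of all genes called higher and 4.61% lower. The gene dct-16 had the largest change, with 21.6, 69.8 and 160.4 CPM at hours 4 to 6 and 1.43, 1.78 and 4.02 CPM at hours 1 to 3. It went on to 817 CPM at hour 16. Continuous N2 held 696.1 to 1268 CPM of it, above all 6 levels.

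Many genes of molting and of the apical extracellular matrix rose. This matrix is the sheet of collagens, lipocalins and zona pellucida proteins from which a new cuticle is built at the molt. Only 27 of 44 molting and matrix genes passed the filter on low counts. A gene near 0 at hours 1 to 3 could pass it through hours 4 to 6 alone. Of the 27, 8 were called higher by edgeR and 0 lower (20 and 0 at an unadjusted p under 0.05, 17 and 0 by DESeq2). Without overlap 17 lay higher, beside 16.8% of all genes, and the median log2 fold change was 3.5. Members that entered through their late level would raise these values. The background of calls was 2.79% of all genes. The linear trend called 20 of the 27 higher. The 27 tested genes summed to 472, 1221 and 5137 CPM at hours 4, 5 and 6, against 338, 323 and 310 CPM at hours 1, 2 and 3.

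The largest fold change of any named gene was that of lpr-5 (chromosome X, 11062123 to 11064539, WBcel235), a lipocalin of the matrix that precedes the cuticle, which is not counted in the list. It had 1.08, 9.7 and 148 CPM at hours 4, 5 and 6, against 0.042, 0 and 0.0883 CPM at hours 1, 2 and 3. Only 3 reads stand behind hours 1 to 3, so the ratio of pooled levels, 1066, has a 95% counting interval of 364.6 to 5174 (Clopper-Pearson). The gene dao-2, named for its higher expression in dauer or aged animals, had 4.41, 46.9 and 518 CPM at hours 4 to 6 and 0.756, 0.337 and 1.1 CPM at hours 1 to 3 (8.14 ± 1.97, adjusted p = 0.0472, edgeR). The gene sym-1, which encodes a secreted leucine-rich repeat protein, had 23.1, 129.7 and 670.5 CPM at hours 4 to 6 and 3.65, 4.43 and 4.28 CPM at hours 1 to 3 (6.198 ± 1.30, adjusted p = 0.0451, edgeR). Hours 1 to 3 were level for sym-1, and the climb began at hour 4.

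The cuticle collagen gene dpy-9 had 5.2, 18.0 and 107 CPM at hours 4 to 6 and 0.294, 0.241 and 1.5 CPM at hours 1 to 3 (6.13 ± 1.42). The molting gene mlt-8 had 9.61, 31.1 and 142 CPM at hours 4 to 6 and 0.462, 0.963 and 3.44 CPM at hours 1 to 3, already climbing within the first window (5.37 ± 1.27). The zona pellucida domain gene noah-2 (5.21 ± 1.19), the ACE-like gene acn-1 (5.01 ± 1.17) and the mucin-like gene let-653 (3.501 ± 0.77) were also called. The patched-related gene ptr-10 changed by 5.63 ± 1.41, the alpha-tubulin gene tba-8 by 6.56 ± 1.42 and subs-4 by 5.42 ± 1.22. Only 40 of 156 col collagen genes passed the filter on low counts, which a low gene could pass through hours 4 to 6 alone. Of the 40, 13 were called higher and 1 lower, beside 2.79% and 4.61% of all genes. Among those higher was col-42, with 15.2, 46.6 and 79.3 CPM at hours 4 to 6 and 0.546, 1.35 and 3.62 CPM at hours 1 to 3.

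Of the transcription factors that time these waves, blmp-1 was called higher, with 79.7, 104.5 and 128 CPM at hours 4 to 6 and 49.2, 49.7 and 57.4 CPM at hours 1 to 3 (1.12 ± 0.20). The nuclear receptor gene nhr-23, needed for molting, had 40.0, 61.4 and 105 CPM at hours 4 to 6 and 36.5, 23.1 and 34.4 CPM at hours 1 to 3 (adjusted p = 0.064, edgeR). The period homologue lin-42 had 7.41, 19.8 and 72.5 CPM at hours 4 to 6 and 6.68, 3.66 and 5.43 CPM at hours 1 to 3 (adjusted p = 0.0626, edgeR). Neither passed, although their windows did not overlap. The heterochronic gene lin-14, which sets early larval fates, moved down with 95.6, 80.2 and 66.4 CPM at hours 4 to 6 and 228, 144 and 129 CPM at hours 1 to 3, and missed the threshold at an adjusted p of 0.0504 (edgeR). Among all nuclear hormone receptors 19 of 206 were called lower and 4 higher, beside 4.61% and 2.79% of all genes, with a median of -0.43.

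Later hours show where these rises led. Of the 374 genes called higher, 84 (22.5%) had means at hours 7 to 9 and at hours 15 to 17 that were each at least 2 times the mean at hours 11 to 13, against 469 of all tested genes (3.5%) and 6 of the 619 called lower (0.969%). Not every rise had this form. The collagen gene col-42 had 3.21 CPM at hour 9 and 1360 CPM at hour 14, and ech-6 and dct-16 stayed high at all later hours. Against continuous N2, the mean at hours 1 to 3 lay above every library for 505 of the genes called lower (81.6%, with 43.3% of all tested genes) and below every library for 260 of those called higher (69.5%, with 13.9% of all tested genes). At hours 4 to 6, 324 of the genes called lower (52.3%) and 240 of those called higher (64.2%) lay within the range of continuous N2, as 56% of all tested genes did. These shares rest on the levels that chose the genes and are a description.

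**Figure D4:**
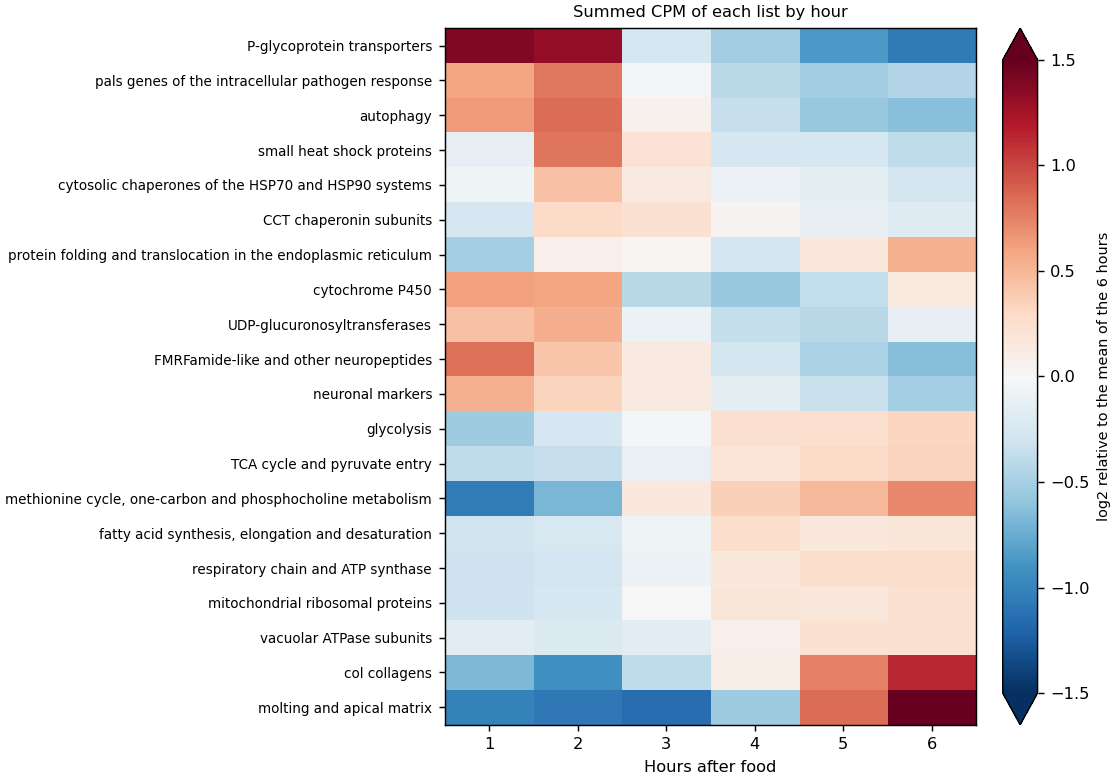
Summed CPM of the tested members of 20 gene lists (vertical axis) at hours 1 to 6 after food (horizontal axis), as log2 relative to the mean of the 6 hours, red above and blue below it. The P-glycoprotein, pals and autophagy lists lie above their mean at hours 1 and 2, the small heat shock list has its maximum at hour 2, and the matrix list passes its mean at hour 5 and reaches 2.91 at hour 6, beyond the end of the colour scale.

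A curved fit in edgeR found 5 genes with a fitted maximum inside the window at least 1 log2 unit above both fitted ends (0.0373% of those tested). It found 33 with such a fitted minimum (0.246%), and DESeq2 found 51 and 97. Heights and depths are those of the fitted curve and not of single libraries. Among genes with a symbol the maximum was that of ram-2, a gene of male tail development, with 51.2, 22.3 and 6.48 CPM at hours 4 to 6 and 15.7, 25.7 and 50.3 CPM at hours 1 to 3. It was highest at hours 3 and 4. Minima included the fatty acid and retinol binding gene far-5, with 6.17, 1.88, 1.15, 1.45, 4.8 and 14.7 CPM at hours 1 to 6. The collagen gene dpy-2, the warthog gene wrt-10 and the protease inhibitor gene mlt-11 were also counted, with a start near 0 and a sharp rise at hour 6, where they had 52.8, 229.5 and 297 CPM. The fitted depth of mlt-11 was 2.16, while its levels at hours 1, 2 and 3 were 0.336, 0.1925 and 0.2207 CPM. Leaving out hour 4, 5 or 6 ended both kinds of call, leaving out hour 3 left 0 maxima and 2 minima, leaving out hour 2 gave 26 and 87, and leaving out hour 1 gave 13 and 38.

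Few markers of cell growth and of tissues were called. None of 42 genes of DNA replication and the cell cycle and none of 17 germline markers was called by edgeR or DESeq2, with medians of 0.11 and 0.10, and at an unadjusted p under 0.05 there were 9 higher and 1 lower in the first set and 2 higher and 1 lower in the second. The replication genes rnr-1 and pcn-1 changed by 0.01 ± 0.12 and 0.01 ± 0.11. Of 25 body-wall muscle markers 1 was called higher, myo-3, and 0 lower (7 higher and 4 lower at an unadjusted p under 0.05, 1 and 1 by DESeq2), with log2 fold changes from -2.55 to 2.48. None of 8 pharyngeal muscle markers was called by edgeR or DESeq2 (2 lower at an unadjusted p under 0.05), and of 7 epidermal and seam markers 1 was called higher, grd-10. The backgrounds for edgeR were 2.79% of all genes called higher and 4.61% lower. Muscle markers summed to 2386 to 2445 CPM at hours 4 to 6 and to 2564 to 2614 CPM at hours 1 to 3, and germline markers to 835 to 1208 CPM and 987 to 1236 CPM at the same hours.

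The next comparison along the course sets the size of the response in context. Hours 7 to 9 against hours 4 to 6 gave 455 genes higher and 150 lower in the same test, of 13229 tested, whereas each of the 4 later comparisons of neighbouring windows gave 0 calls in edgeR's test, although 25.1% to 40.9% of their genes had an unadjusted p under 0.05. Neighbouring comparisons share libraries, and the hours within a later window can differ as much as the windows do.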

How the data were processed

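Counts of whole reads per gene were used as deposited by the authors, for 20182 genes in 45 libraries, of which 6 were compared. The labels' protocols give Tri-reagent isolation and a stranded mRNA kit; the aligner, counter, strand use and build were not given in the sources used here. Near-identical paralogues and overlapping genes are uncertain. The authors' normalized table was not used here. Symbols and coordinates (18778 identifiers matched) come from the WBcel235 annotation, which may not be the build of the counts.

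Hours were taken from the sample titles. R 4.3.3 with edgeR 4.0.16 was used with its filter on low counts (filterByExpr), TMM scaling and its quasi-likelihood test on the 6 libraries, adjusted over all 13415 tested genes by the Benjamini-Hochberg method. A call needed an adjusted p under 0.05 and a log2 fold change of at least 1. Standard errors are the absolute log2 fold change divided by the square root of F. P-values measure the spread between the hours of a window, not between cultures. A linear trend and a curved fit over the hours, DESeq2 1.42.0, other scalings, no filter, an adjusted p of 0.1 (chosen after seeing the data), other windows and leaving out each library were tried. The scripts were tested on simulated data. CPM used library totals, sums over a list cover its tested members only, and counting intervals cover counting error only.

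Members and lists were chosen with earlier results of these data known, so lists are described by counts and medians and not tested. Named genes are the 8 with the largest change in each direction (at least 10 CPM in the higher window, windows not overlapping), up to 4 with a maximum or minimum, the 3 most changed called members of any list with 3 or more calls, and a set of well-known genes. Other genes named in the text were chosen after their values were seen.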

Additional observations from a re-analysis of the deposited data

How the results depend on the processing

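The counts of 374 genes higher and 619 lower at hours 4 to 6 were 371 and 622 with RLE size factors, 292 and 433 without the filter on low counts, and 318 and 936 with library totals alone. They were 679 and 1121 with DESeq2, 989 and 986 on the adjusted p alone, 580 and 1143 with all 22 dauer exit libraries in the fit, 809 and 1369 for hours 5 and 6 against 1 and 2, 730 and 1135 for the linear trend, and 679 and 1187 at an adjusted p under 0.1. Leaving out 1 library gave 0 to 759 higher and 0 to 1534 lower genes, with calls only without hour 3; the smallest adjusted p without hours 1, 2, 4, 5 and 6 was 0.0568, 0.143, 0.0558, 0.16 and 0.144. Maxima within the window numbered 5, 11 with library totals alone, 51 with DESeq2 and 0 to 26 without 1 library, and minima 33, 51 without the filter, 97 with DESeq2 and 0 to 87 without 1 library. The cause of these differences was not tested. All 993 called genes kept their direction in each setting, an outcome that windows without overlap largely fixed in advance.

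Of 110 tested genes chosen by the rule, 7 reversed in some setting, none of them called. Their log2 fold changes without 1 library ranged from -0.925 to 0.455 for ram-2 (0.364 without hour 6), -0.058 to 0.154 for daf-18, -0.153 to 0.717 for ins-7, -1.755 to 0.133 for hsp-4, -0.099 to 0.095 for rnr-1 (-0.045 without hour 1), -0.096 to 0.076 for pcn-1 (-0.006 without hour 2) and -0.607 to 0.097 for glh-1. With library totals alone daf-18 gave -0.052 and rnr-1 and pcn-1 both -0.110, and with all 22 libraries rnr-1 gave -0.026 and pcn-1 -0.025. No paired analysis was possible because the hours carry no replicate numbers that would join a library of one window to a library of the other. Depth limits the low genes named: those under 1 CPM rest on fewer than about 24 reads in a library.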

Other observations

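The steps between single hours compare 1 library with 1 library, and the genes named for them were chosen after their values were seen. Between hours 1 and 2 there were 23 genes with a level at least 8-fold higher at hour 2 and 19 with one at least 8-fold lower, and 18 of the 23 were at or under 50% of their hour 2 level by hour 4. Among those lower at hour 2, the O-acyltransferase homologue oac-53 had 332.7, 40.7, 6.31, 6, 4.8 and 2.75 CPM at hours 1 to 6, and F35E8.7 had 160.7, 11.9, 2.08, 0.844, 0.353 and 0.108 CPM. Among those higher, dct-17, from a family of secreted proteins that pathogens induce, had 3.65, 133, 76.5, 17.4, 31.0 and 57.3 CPM at hours 1 to 6. The infection response gene irg-5, highest at hour 3, had 0.168, 11.6, 15.4, 6.33, 4.28 and 11.3 CPM, and dod-22, a gene repressed by DAF-16, had 5.33, 124, 78.0, 25.6, 17.2 and 15.0 CPM. The gene hsp-4, the worm BiP that marks the unfolded protein response of the endoplasmic reticulum, had 191, 1669, 370.4, 147, 367 and 322 CPM. It was not called between the windows (log2 fold change -1.30 ± 0.83, adjusted p = 0.273, edgeR).

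Between hours 2 and 3 there were 7 genes at least 8-fold higher and 12 at least 8-fold lower at hour 3. Genes with a rise in that step are described here. The saposin-like gene spp-17 had 1.43, 3.37, 37.8, 205, 221 and 216 CPM at hours 1 to 6, and the aspartyl protease gene asp-13 had 13.1, 2.36, 42.3, 128, 111 and 113 CPM. The haem transporter gene hrg-4 had 1.39, 1.88, 17.0, 13.6, 6.52 and 7.83 CPM, and smf-3, which encodes a divalent metal transporter of the gut, had 10.5, 2.46, 24.7, 32.1, 8.68 and 10.0 CPM. None of the 4 was called between the windows in edgeR's test (adjusted p = 0.0589, 0.0712, 0.659 and 0.65).

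Another set appeared at hour 6. There, 27 genes were at least 8-fold higher than at hour 5, and all 27 had a mean at hours 7 to 9 above that of hour 6. They included the lipocalin genes lpr-4, with 0.176 and 76.0 CPM at hours 5 and 6, and lpr-3, with 11.1 and 335 CPM, and the furrow collagen genes dpy-3, with 0.22 and 29.9 CPM, and dpy-7, with 9.52 and 85.6 CPM. No gene fell 8-fold in that step.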
